A study of Mus musculus with 7 samples.

Results

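The barcodes described here come from embryonic mouse cortex and held transcripts of dividing cells and of the ventral, GABAergic lineage together. Doublets were not removed, so a barcode need not stand for 1 cell. A barcode was counted when it held at least 3 unique molecular identifiers (UMIs, counts of captured RNA molecules) summed over Top2a, Mki67, Cenpe, Tpx2, Ccna2 and Kif11, and at least 2 summed over Dlx1, Dlx2, Dlx5, Dlx6os1, Gad1 and Gad2. A barcode was kept if 500 or more genes were detected in it and mitochondrial RNA made up no more than 10% of its UMIs. Of 23005 barcodes kept, 1619 passed the cell cycle gate. Of these 1619, 243 (15.0%) also passed the Dlx/Gad gate, which is 1.06% of all kept barcodes. They are called cycling Dlx/Gad barcodes below. Because these 12 genes chose them, their levels are given as a description with no test.

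The embryos came from a single litter of a male carrying Emx1CreERT2 and Ash1lfl/fl and a female carrying Ash1lfl/fl. The mother received tamoxifen at 100 mg/kg at E10.5, so controls were exposed to it too, and cortex was taken at E18.5. There were 4 mutant embryos (Emx1CreERT2;Ash1lfl/fl, replicates 10, 11, 12 and 17) and 3 control embryos (Ash1lfl/fl, replicates 14, 15 and 16), each profiled as 1 Seq-Well library, a method that pairs single cells and barcoded beads in an array of tiny wells. All 7 embryos carry the floxed allele. Ash1l encodes a histone H3 lysine methyltransferase. The inducible Cre is driven from Emx1, a gene of the dorsal telencephalon. The labels do not say in which cells recombination took place. Whether the barcodes described here descend from cells that expressed Emx1 was not tested.

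Dlx1, Dlx2 and Dlx5 encode homeodomain transcription factors of the ganglionic eminences, the ventral germinal zones that produce GABAergic neurons. These neurons migrate into cortex and olfactory bulb, and they make GABA with the glutamic acid decarboxylases encoded by Gad1 and Gad2. Dividing cells of this lineage include radial glia of the ventricular zone and more advanced progenitors that express Gsx2 and then the Dlx genes. Cortical progenitors of the dorsal lineage express Emx1, Emx2 and Pax6 and produce glutamatergic neurons. Of these genes Pax6 is also made by ventral progenitors of the lateral eminence.

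The promoters of 3 of the 12 gate genes are shown, since these genes define the barcodes; each run is the 250 bases before the annotated start, 5′ to 3′ on the gene's strand, from RefSeq on GRCm38.p6. Capitals mark the CCAAT box (ATTGG when it lies on the other strand), the motif TTTGAA known from cell cycle promoters (on the other strand TTCAAA) and the homeodomain core TAATTA, which reads alike on both strands. Top2a encodes a DNA topoisomerase that untangles chromosomes, Mki67 a protein that coats mitotic chromosomes, and Dlx6os1 a noncoding RNA from the Dlx5 and Dlx6 locus.
Top2a, chr11:99024190-99024439, minus strand: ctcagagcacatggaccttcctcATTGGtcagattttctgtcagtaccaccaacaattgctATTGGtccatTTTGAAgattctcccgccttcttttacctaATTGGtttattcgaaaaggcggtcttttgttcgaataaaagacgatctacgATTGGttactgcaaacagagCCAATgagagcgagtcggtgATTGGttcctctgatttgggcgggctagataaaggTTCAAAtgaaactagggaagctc
Mki67, chr7:135716380-135716629, minus strand: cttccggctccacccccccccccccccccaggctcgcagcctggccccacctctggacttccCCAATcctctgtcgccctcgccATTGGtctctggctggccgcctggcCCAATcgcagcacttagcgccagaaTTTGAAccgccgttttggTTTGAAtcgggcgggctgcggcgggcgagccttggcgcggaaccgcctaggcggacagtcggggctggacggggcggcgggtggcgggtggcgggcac
Dlx6os1, chr6:6869534-6869783, minus strand: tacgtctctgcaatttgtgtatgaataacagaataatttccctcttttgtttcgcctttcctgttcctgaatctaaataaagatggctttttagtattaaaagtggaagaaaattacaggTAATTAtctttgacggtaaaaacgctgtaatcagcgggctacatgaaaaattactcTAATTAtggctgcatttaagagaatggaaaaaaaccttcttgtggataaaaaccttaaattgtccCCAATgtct
Top2a held 6 CCAAT and 2 TTTGAA matches, Mki67 held 3 and 2, and Dlx6os1 held 1 CCAAT and 2 TAATTA matches. CCAAT occurred in 34.5%, TTTGAA in 16.3%, both in 5.73% and TAATTA in 4.90% of the 27025 promoters of this length. Promoters were found for 4 of the 6 cell cycle gate genes, all with CCAAT and 3 with TTTGAA, and for 5 of the 6 Dlx/Gad genes, 3 with CCAAT, none with TTTGAA and 1, Dlx6os1, with TAATTA. None of the 19 promoters found for the lists of GABAergic and ventral regulator genes held TAATTA. In a list of 39 other G2 and M phase genes, 34 had a promoter, of which 26 (76.5%) held CCAAT and 10 (29.4%) held TTTGAA. A match describes the letters and not a bound site.

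The 7 libraries held 50191 barcodes and 62753750 UMIs, from 7083225 to 11859209 UMIs per library. A doublet caller marked 13 barcodes (0.0565%), a number too low to rely on, and doublets were not removed. Of the 243 barcodes 9.47% lay above the 95th percentile of its scores in their library, against 3.71% of all kept barcodes (several share the score at the percentile), 7.18% of cycling barcodes with a Dlx/Gad sum of 0 and 4.35% of non-cycling Dlx/Gad barcodes. The 243 barcodes were deeper than others, with a median of 2470 UMIs against 1840 in cycling barcodes with a Dlx/Gad sum of 0, 1583 in non-cycling Dlx/Gad barcodes and 1397 in all kept barcodes. A Dlx/Gad sum of at least 2 was also found in 4 of 49 barcodes marked by microglia genes and in 2 of 38 marked by endothelial genes, cell types that should lack these RNAs, at median depths of 2705 and 1920.5 UMIs. No kept barcode sequence of a cycling Dlx/Gad barcode occurred in more than 1 library, while 24 sequences among all kept barcodes did.

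The share of cycling barcodes that were Dlx/Gad barcodes was higher in mutants 10 and 12 than in any control and lower in mutants 11 and 17. That order depended on the filters: without the barcodes of highest doublet score mutants 10 and 12 were at 19.2% and 18.8% and control 14 at 19.7%, and at a mitochondrial limit of 5% control 15 was at 8.18% and mutant 11 at 7.36%. They made up 41 of 197 cycling barcodes in mutant 10 (20.8%, 95% exact binomial interval 15.4 to 27.2), 13 of 195 in mutant 11 (6.67%, 3.60 to 11.1), 57 of 297 in mutant 12 (19.2%, 14.9 to 24.1) and 11 of 196 in mutant 17 (5.61%, 2.83 to 9.82). In the controls they made up 26 of 141 in replicate 14 (18.4%, 12.4 to 25.8), 46 of 300 in replicate 15 (15.3%, 11.4 to 19.9) and 49 of 293 in replicate 16 (16.7%, 12.6 to 21.5). The intervals cover counting error only. The mean share was 13.1% ± 8.04 (SD, n = 4) in mutants and 16.8% ± 1.56 (SD, n = 3) in controls, a difference of −3.76 points that the spread among mutants exceeds (exact permutation test over 35 splits, two-sided p = 0.571, smallest possible p 0.0286).

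As a share of all kept barcodes the values were 1.94%, 0.412%, 1.53% and 0.302% in mutants 10, 11, 12 and 17, and 1.18%, 1.18% and 1.14% in controls 14, 15 and 16. The mean was 1.05% ± 0.815 (SD, n = 4) in mutants and 1.17% ± 0.0214 (SD, n = 3) in controls (exact permutation p = 0.8). The difference of −0.121 points turned to 0.0905 without mutant 11 and to 0.127 without mutant 17. It was 0.124 when the 10558 kept barcodes of at least 1500 UMIs were thinned to that depth. Thinning drops 12447 shallower kept barcodes, 55 of the 243 among them. At that depth 16, 5, 21 and 3 barcodes still passed both gates in mutants 10, 11, 12 and 17. In controls 14, 15 and 16 they were 11, 13 and 14. Non-cycling Dlx/Gad barcodes, with a cell cycle sum of 0, varied in the same embryos, at 11.1%, 6.72%, 11.2% and 5.77% of kept barcodes in mutants 10, 11, 12 and 17 and at 9.21%, 8.65% and 6.35% in the controls. The cycling barcodes of any kind were 7.22% ± 1.78 (SD, n = 4) and 6.98% ± 0.662 (SD, n = 3) of kept barcodes (exact permutation p = 0.857).

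**Figure D1:**
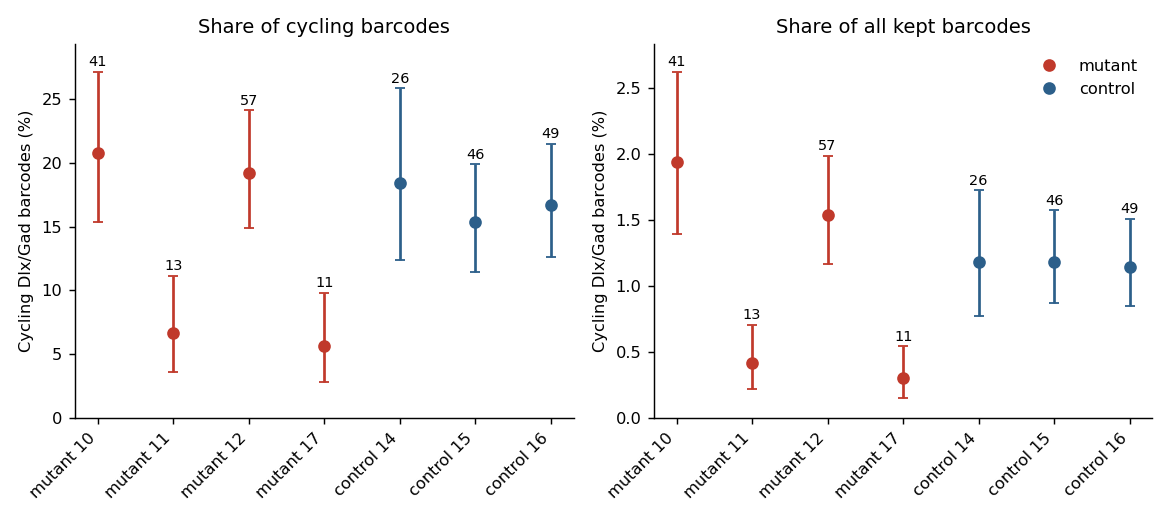
Cycling Dlx/Gad barcodes per embryo as a percent of cycling barcodes and of all kept barcodes, with 95% exact binomial intervals; red points are the 4 mutants, blue points the 3 controls, and the number above each is its count of cycling Dlx/Gad barcodes. Mutants 10 and 12 lie above and mutants 11 and 17 below the controls.

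Of the gate genes, Top2a and Mki67 were the most abundant. Top2a was at 1442, 1576, 1345 and 1113 CPM (the gene's share of an embryo's summed UMIs in these barcodes, scaled to a common total) in mutants 10, 11, 12 and 17 and at 1831, 1528 and 1036 in controls 14, 15 and 16. Mki67 was at 1215, 1655, 1428 and 689 CPM in the mutants and 1387, 1219.7 and 922 in the controls, lowest in mutant 17. Cenpe, a kinetochore motor, Tpx2, a spindle assembly factor, Ccna2, cyclin A2, and Kif11, a spindle motor, had means over the 7 embryos of 402 ± 103, 404 ± 75.4, 322 ± 89 and 354 ± 63.2 CPM (SD, n = 7). A UMI of Mki67 was found in 88.5% and of Top2a in 83.5% of the 243 barcodes.

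Among the ventral gate genes Dlx1 and Dlx6os1 gave most of the UMIs. Dlx1 was at 448, 342, 702 and 450.4 CPM in the mutants and 688, 466 and 375 in the controls, so the groups overlapped. Dlx6os1 was at 338, 552, 644 and 371 CPM in the mutants and 388, 258 and 203 in the controls. Dlx2 averaged 108 ± 60, Gad1 161 ± 78, Gad2 137 ± 35 and Dlx5 22.3 ± 13.2 CPM (SD, n = 7). A UMI was found in 67.1% of the barcodes for Dlx1, 58.8% for Dlx6os1, 33.3% for Dlx2, 30.5% for Gad1 and 8.23% for Dlx5. A UMI of Dlx1 was also found in 5 of 49 microglia-marked and 4 of 38 endothelium-marked barcodes.

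The gates have edges. The median cell cycle sum was 10 UMIs (range 3 to 93) and the median Dlx/Gad sum 3 UMIs (range 2 to 27). At the lower edges stood 45 barcodes with a cell cycle sum of exactly 3 and 77 with a Dlx/Gad sum of exactly 2, 21 of them with both. Just outside were 179 cycling barcodes with a Dlx/Gad sum of 1 and 56 Dlx/Gad barcodes with a cell cycle sum of 2. The 101 barcodes at either inner edge had a median of 2375 UMIs, the 179 a median of 1863 and the 56 a median of 2347.

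**Figure D2:**
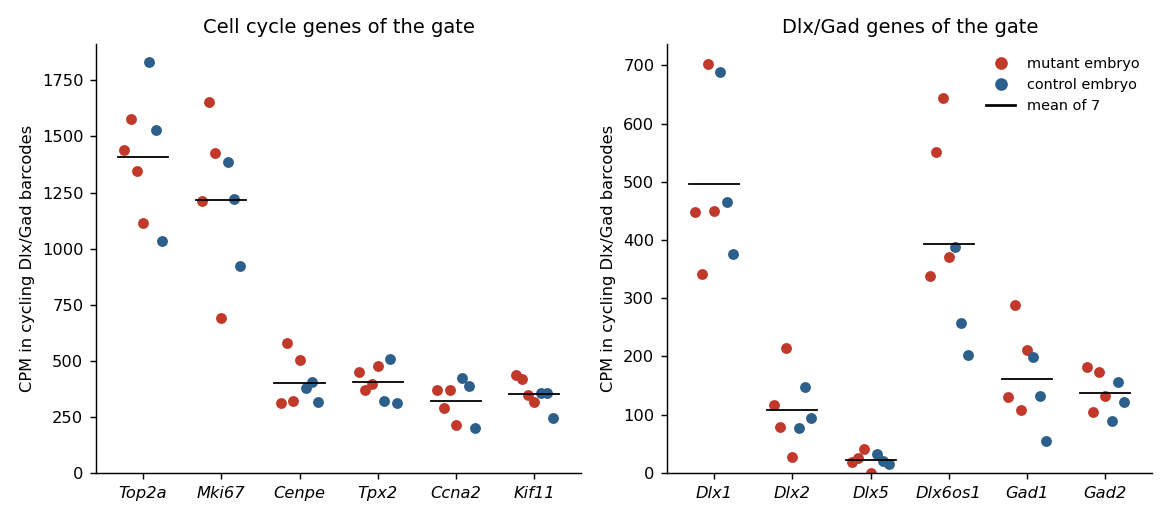
Level in CPM of each of the 12 gate genes in cycling Dlx/Gad barcodes, 1 point per embryo, mutants in red and controls in blue, with a line at the mean of the 7 embryos. Top2a and Mki67 are highest among the cell cycle genes and Dlx1 and Dlx6os1 among the Dlx/Gad genes, with mutants and controls overlapping for each gene.

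Markers that the gates did not use bear on the name. A UMI of Sp9, a ventral transcription factor, was found in 23.9% of the 243 barcodes, in 1.59% of cycling barcodes with a Dlx/Gad sum of 0 and in 17.6% of non-cycling Dlx/Gad barcodes, and at 1500 UMIs per barcode in 11.2%, 0.830% and 13.5%. It was found in 0 of 49 microglia-marked barcodes, which allows a share of up to 6.12%. A UMI of the lateral eminence and olfactory markers (Sp8, Sp9, Meis2, Tshz1, Etv1, Pbx3) was found in 191 of the 243 barcodes (78.6%), in 58.1% of cycling barcodes with a Dlx/Gad sum of 0 and in 57.9% of non-cycling Dlx/Gad barcodes, and at 1500 UMIs in 64.9%, 47.4% and 51.9%. For the caudal eminence markers (Nr2f2, Nr2f1, Prox1, Htr3a, Adarb2) the shares were 54.3%, 44.7% and 49.3%, and at 1500 UMIs 46.8%, 34.9% and 45.7%. For the medial eminence markers (Nkx2-1, Lhx6, Lhx8, Sst, Sox6, Satb1) they were 37.9%, 29.2% and 39.5%, and at 1500 UMIs 23.9%, 21.7% and 36.4%. All 3 marker sets were therefore common in cycling barcodes without Dlx/Gad UMIs too. Microglia-marked barcodes held lateral, caudal and medial markers in 32.7%, 20.4% and 18.4% of cases, and of 38 endothelium-marked ones 18, 16 and 4 did. Nkx2-1, which defines the medial eminence, was found in 0.412% of the barcodes, Lhx8 in 0.823% and Lhx6 in 6.58%. A UMI of the dorsal progenitor markers (Emx1, Emx2, Pax6, Neurog1, Neurog2, Eomes) was found in 46.5% of the 243, in 58.7% of cycling barcodes with a Dlx/Gad sum of 0, in 17.7% of non-cycling Dlx/Gad barcodes and in 14.3% of microglia-marked and 28.9% of endothelium-marked barcodes. At 1500 UMIs the first 3 shares were 31.4%, 51.7% and 14.8%. Glutamatergic markers were found in 37.9% of the 243, from 24.6% in mutant 12 to 59.2% in control 16. They were found in 40.9% of cycling barcodes with a Dlx/Gad sum of 0, 35.1% of non-cycling Dlx/Gad barcodes, 36.7% of microglia-marked and 50.0% of endothelium-marked barcodes. No expression is read from these glutamatergic shares, and the region in which the barcodes arose was not tested.

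Microglia and endothelial cells were rare among the 243. No microglia-marked barcode and 1 endothelium-marked barcode, in mutant 17, was among them, and 8 of 9 microglial genes were at 0. A UMI of the oligodendrocyte precursor markers (Olig1, Olig2, Pdgfra, Sox10, Cspg4) was found in 21 of the 243. The listed genes of that lineage summed to 841 CPM in mutant 11, against 738 in its cycling barcodes with a Dlx/Gad sum of 0. In the other embryos the sums were 97.7 to 477 against 352 to 873 CPM. The summed endothelial genes were at 397 CPM in mutant 17 and between 0 and 39.1 elsewhere, with Cldn5 at 0 in every embryo. Haemoglobin and Alas2 RNA ranged from 88.8 CPM in control 14 to 13077 in control 15 and 10040 in mutant 17. Markers of striatal neurons summed to 19.5 to 78.2 CPM, with Drd2 and Adora2a at 0. Radial glia genes were lowest in mutant 17, at a sum of 1537 CPM against 3615 to 5307 in the other embryos, and early neuronal genes were highest there, at 9193 against 4703 to 7742. The part of these differences between embryos in the results below was not tested beyond leaving out each embryo.

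The first comparison set the cycling Dlx/Gad barcodes against the 1197 cycling barcodes with a Dlx/Gad sum of 0, within embryos. They carried more RNA of ventral regulators and of neuronal genes and less of radial glia, dorsal and oligodendrocyte precursor genes. The 5 embryos with at least 20 cycling Dlx/Gad barcodes entered (mutants 10 and 12 and the 3 controls), so the 13 and 11 barcodes of mutants 11 and 17 did not. Summed UMIs were tested with edgeR's quasi-likelihood test with the embryo as a block and Benjamini-Hochberg adjustment over 8003 genes, and "called" means an adjusted p under 0.05. Of the genes tested 551 (6.88%) were called, 225 (2.81%) higher and 326 (4.07%) lower in the Dlx/Gad barcodes. Leaving out the 12 gate genes, 219 (2.74%) were higher and 326 (4.08%) lower, and the median log2 fold change over all genes tested was 0.01.

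Sp9, a zinc finger transcription factor of ventral progenitors and young striatal and olfactory neurons, had the largest rise among genes that passed 50 CPM in the higher class and moved the same way in all 5 embryos. It was at 77.9, 140.3, 111, 101 and 46.9 CPM in mutants 10 and 12 and controls 14, 15 and 16, and at 0, 19.5, 2.08, 7.32 and 5.13 in the cycling barcodes without Dlx/Gad UMIs of the same embryos. The 2 sets did not overlap, and the fitted difference was a 14-fold higher level (log2 fold change 3.80, SE 0.42, adjusted p = 7.58e-09). Sp9 maps to chromosome 2, 73271925 to 73284706 (plus strand, protein-coding, mm10).

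Of 14 listed ventral regulators 6 were tested, and 4 rose and none fell, with a median log2 fold change of 2.60. They included Sp9, Dlx6 (log2 fold change 3.85, SE 0.79, adjusted p = 8.15e-04) and Dlx1os (log2 fold change 3.85, SE 0.77, adjusted p = 5.50e-04). Dlx6 and Dlx1os overlap the gate genes Dlx6os1 and Dlx1 on the opposite strand. The sources used here do not say whether counting used strand, so these RNAs cannot be told apart from gate genes. Sp8, another zinc finger factor of the lateral eminence, had a log2 fold change of 0.99 (adjusted p = 0.15). The count of ventral regulators called ranged from 2 to 6 across the alternatives, and it was 2 without control 16.

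Genes of GABAergic neurons were higher in part. Of 16 listed genes 9 were tested, 5 rose and none fell, with a median of 1.40; Dlx6 and Dlx1os are also on the regulator list. Nrxn3, a presynaptic adhesion protein, averaged 182 ± 65.7 CPM against 19.3 ± 10.6 (SD, n = 5; log2 fold change 3.21, SE 0.25, adjusted p = 3.32e-13). Erbb4, the neuregulin receptor of migrating interneurons, averaged 93.5 ± 51.9 against 15.9 ± 8.83 CPM (log2 fold change 2.45, SE 0.37, adjusted p = 6.05e-06). Both were higher in 5 of 5 embryos.

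Lists for the eminences differed in how many genes passed. Of the caudal list 3 of 5 tested genes rose, with a median of 1.49. They were Prox1, a homeodomain factor of caudally derived interneurons (100.1 ± 76.9 against 31.4 ± 14.8 CPM, higher in 4 of 5 embryos; log2 fold change 1.49, SE 0.35, adjusted p = 0.00351), Adarb2, a double-stranded RNA binding protein (44 ± 24.4 against 3.52 ± 3.16 CPM; log2 fold change 3.45, SE 0.62, adjusted p = 1.08e-04), and Synpr, a synaptic vesicle protein (log2 fold change 1.93, SE 0.58, adjusted p = 0.0318). The Prox1 call was lost without control 15 (log2 fold change 1.26, adjusted p = 0.057), and its adjusted p ran from 1.04e-04 to 0.214 over 17 alternatives. Nr2f1, the most abundant tested gene of the caudal list, did not pass (log2 fold change 0.005, adjusted p = 0.996). Nr2f2 did not pass either (log2 fold change 0.92, adjusted p = 0.0595). Of the lateral and olfactory list 1 of 7, Sp9, rose (median 0.76), and Meis2, a homeodomain cofactor of the striatal and olfactory lineage, had a log2 fold change of −0.13 (adjusted p = 0.69). Of the medial list none of 4 passed (median 0.01), with Sox6 at −0.52 (adjusted p = 0.22) and Satb1 at 0.53 (adjusted p = 0.19). Whether the lists differ from each other was not tested.

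Radial glia genes fell together. Of 15 listed and tested, 13 fell and none rose (median −1.53), against 4.07% of all genes, and 12 to 14 fell under every alternative tried. Fabp7, a fatty acid binding protein of radial glia, was at 1604, 941, 888, 1377 and 1149 CPM in the Dlx/Gad barcodes of mutants 10 and 12 and controls 14, 15 and 16, and at 4548, 4068, 4899, 5293 and 3398 in the other cycling barcodes. The sets did not overlap (log2 fold change −1.87, SE 0.09, adjusted p = 7.83e-20). Slc1a3, a glial glutamate transporter, averaged 263 ± 112 against 987 ± 189 CPM (log2 fold change −1.86, SE 0.14, adjusted p = 7.88e-14), and Ptprz1, a receptor phosphatase, 471 ± 94.9 against 1155 ± 214 (log2 fold change −1.27, SE 0.12, adjusted p = 7.41e-11). Vim, the intermediate filament vimentin, averaged 732 ± 195 against 1765 ± 224 CPM (log2 fold change −1.27, SE 0.11, adjusted p = 6.15e-12), and Tnc, the matrix protein tenascin C, 330.0 ± 134 against 1202 ± 274 (log2 fold change −1.81, SE 0.13, adjusted p = 1.28e-14). Fabp7 was still detected in 47.7% of the Dlx/Gad barcodes, against 76.7% of the other cycling barcodes and 16.8% of the non-cycling ones.

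Dorsal regulators fell in most cases. Of 12 listed genes 10 were tested, 8 fell and none rose (median −0.95), with 3 to 8 called across the alternatives, 3 under DESeq2 or without mutant 12, 4 without mutant 10, and 5 without control 14 or 15. Lhx2, a LIM homeodomain factor of the cortex, averaged 145 ± 42.9 against 271 ± 43.3 CPM (log2 fold change −0.89, SE 0.18, adjusted p = 4.73e-04). Emx2, a cortical homeodomain factor, averaged 27 ± 20.3 against 84.5 ± 17.9 CPM (log2 fold change −1.59, SE 0.32, adjusted p = 6.48e-04), and Gli3, the transcriptional effector of Hedgehog signalling, 53.4 ± 8.52 against 99.6 ± 16 (log2 fold change −0.85, SE 0.25, adjusted p = 0.024). Emx1, whose locus drives the Cre, averaged 36.3 ± 21.3 against 79.3 ± 8.64 CPM, lower in 5 of 5 embryos (log2 fold change −1.02, SE 0.30, adjusted p = 0.0262). Pax6, which is also made by ventral progenitors of the lateral eminence, changed less (162 ± 35 against 232 ± 48.2 CPM; log2 fold change −0.51, SE 0.16, adjusted p = 0.0432). The calls of Emx1, Gli3, Pax6 and Neurog2 were lost under 7, 8, 10 and 10 of the 17 alternatives.

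Of 10 genes of intermediate progenitors, the transit cells of the dorsal lineage, 7 were tested and 1 fell, the proneural gene Neurog2 (31.2 ± 19.9 against 71.8 ± 11.8 CPM; adjusted p = 0.0485); the median was 0.02. Insm1, a zinc finger factor of delaminating progenitors, had a log2 fold change of 0.50 (adjusted p = 0.16). Notch pathway genes fell in 5 of 12 tested cases and none rose (median −0.71). Notch2, a receptor, averaged 70 ± 8.98 against 186 ± 56.7 CPM (log2 fold change −1.30, SE 0.22, adjusted p = 3.44e-05). The pathway's targets Hes1 (20 ± 15.5 against 87.2 ± 19.8 CPM; log2 fold change −2.21, SE 0.35, adjusted p = 1.14e-05) and Nrarp (log2 fold change −1.44, SE 0.34, adjusted p = 0.00373) fell, as did Notch1 (log2 fold change −0.70, SE 0.18, adjusted p = 0.00816) and Notch3, which had 1 UMI in the Dlx/Gad barcodes. Notch1 lost its call under 5 of 17 alternatives.

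Oligodendrocyte precursor genes fell in 4 of 6 tested cases and none rose (median −1.36). Olig1, a basic helix-loop-helix factor of that lineage, was at 0, 8.25, 33.3, 25.3 and 0 CPM in the Dlx/Gad barcodes of mutants 10 and 12 and controls 14, 15 and 16. It was at 176, 100, 166, 150.1 and 47.9 CPM in the other cycling barcodes of these embryos, without overlap (log2 fold change −3.36, SE 0.38, adjusted p = 1.19e-08). Egfr, the epidermal growth factor receptor, averaged 40.7 ± 28.1 against 120.1 ± 27.6 CPM (log2 fold change −1.68, SE 0.29, adjusted p = 4.83e-05), and Bcan, a matrix proteoglycan, 69.5 ± 50.9 against 166 ± 31.6 (log2 fold change −1.29, SE 0.24, adjusted p = 2.09e-04). In mutant 11, which this comparison left out, Olig1 reached 183.9 CPM in 13 Dlx/Gad barcodes, from 7 UMIs.

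**Figure D3:**
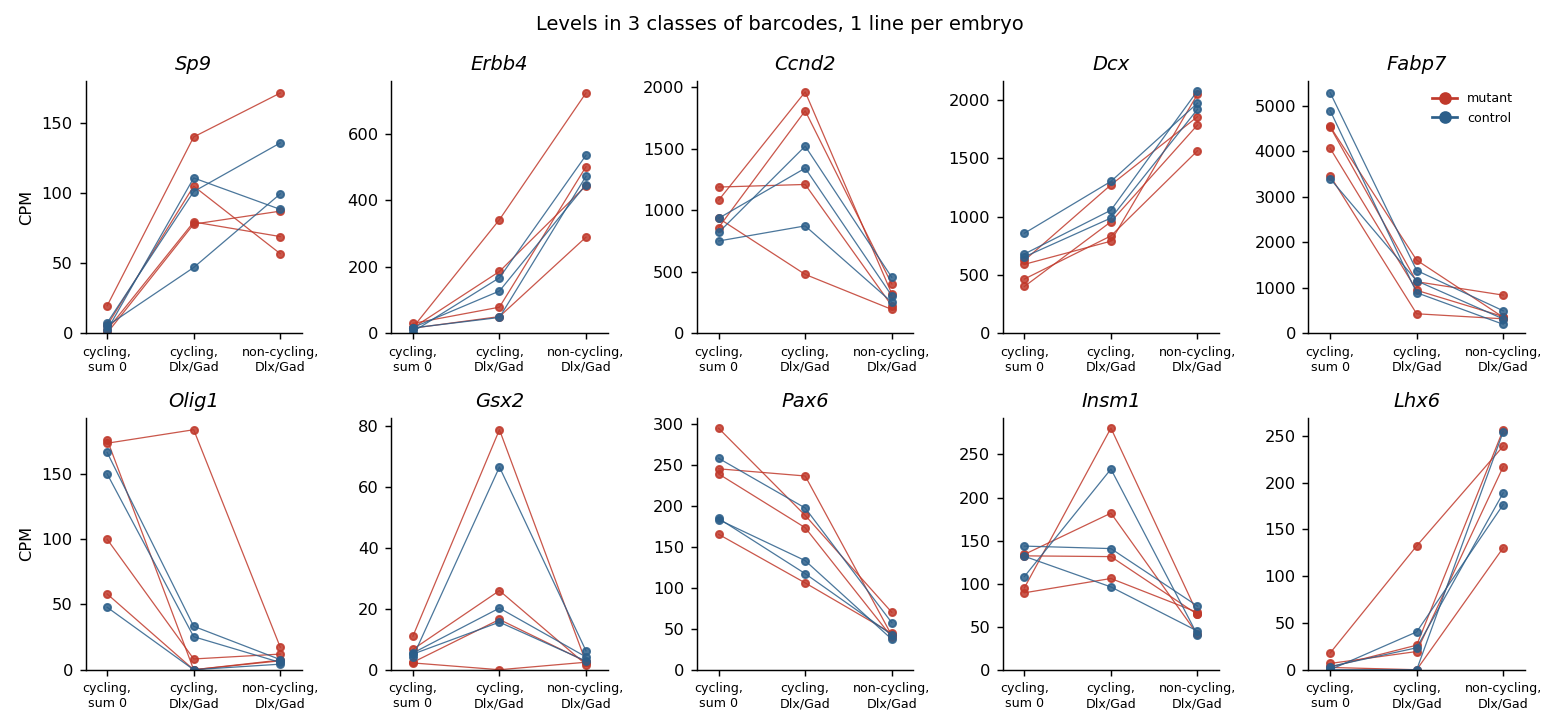
Level in CPM of 10 genes in cycling barcodes with a Dlx/Gad sum of 0, cycling Dlx/Gad barcodes and non-cycling Dlx/Gad barcodes, 1 line per embryo for all 7 embryos, mutants in red and controls in blue. Ccnd2 is highest in the middle class in every embryo except mutant 17, Fabp7 and Dcx lie between the other classes in every embryo, and mutant 17 is the lowest line for Ccnd2 and Fabp7 in the middle class.

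S phase and G2 and M phase genes outside the gate were called between the 2 cycling classes at shares near those over all genes, 2.81% higher and 4.07% lower. Both classes passed the same cell cycle gate, so like levels of these genes describe the gate in part. Of 27 S phase genes 1 fell, the replicative helicase subunit Mcm4 (137 ± 39.2 against 237 ± 25.8 CPM; log2 fold change −0.78, SE 0.17, adjusted p = 0.00139), with a list median of −0.20. Of 38 G2 and M phase genes 1 rose, the mitotic kinase Aurka (log2 fold change 0.62, SE 0.20, adjusted p = 0.0485), a call that 11 of 17 alternatives lost; the list median was −0.05. Of 14 cyclins, kinases and inhibitors, 1 rose and 2 fell. Ccnd2, cyclin D2, was at 1962, 1808, 1520.2, 1341 and 872 CPM in mutants 10 and 12 and controls 14, 15 and 16 against 1081, 858, 818, 933 and 749 in the other cycling barcodes (log2 fold change 0.73, SE 0.10, adjusted p = 1.70e-06). It was higher in each of the 5 embryos, although the ranges overlap, and the call was lost at a mitochondrial limit of 5% (log2 fold change 0.37, adjusted p = 0.074, the highest over 17 alternatives). Ccnd1, cyclin D1, averaged 38.9 ± 18.1 against 111 ± 33.5 CPM (log2 fold change −1.36, SE 0.27, adjusted p = 4.95e-04), and Cdk6, a partner of both cyclins, 30.8 ± 16.4 against 72.9 ± 23.6 (log2 fold change −1.22, SE 0.31, adjusted p = 0.00758).

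Early neuronal genes rose in 9 of 10 cases and none fell (median 0.75). Dcx, a microtubule protein of migrating neurons, was at 955, 834, 1054, 987 and 1301 CPM in the 5 embryos against 399.6, 463, 678, 653 and 856 (log2 fold change 0.80, SE 0.11, adjusted p = 5.32e-07). Map2, a dendritic microtubule protein, averaged 1172 ± 131 against 847 ± 167 CPM (log2 fold change 0.50, SE 0.10, adjusted p = 4.17e-04), and Sox4, a factor of young neurons, 1166 ± 183 against 781 ± 199 (log2 fold change 0.61, SE 0.10, adjusted p = 3.98e-05). When Dlx/Gad barcodes with a UMI of a glutamatergic marker were left out, 2 of 10 remained called, and Dcx had a log2 fold change of 0.28 (adjusted p = 0.35), the only alternative of 17 that lost its call. That alternative removes such barcodes from 1 class only, and with it 6 glutamatergic genes fell and 10 G2 and M phase genes rose. Among 11 glutamatergic genes in the full comparison 1 rose, Bcl11b, a zinc finger factor also made by striatal and other GABAergic neurons (212 ± 61.9 against 83.5 ± 27 CPM; log2 fold change 1.41, SE 0.20, adjusted p = 1.10e-06).

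By the naming rule, 166 genes that rose and 259 that fell also passed 50 CPM in the higher class and moved the same way in all 5 embryos. The 12 with the largest rise were Sp9, Nrxn3, Neb, St18, Erbb4, Gria1, Slit1, Arrdc4, Meg3, Flrt2, Myt1 and Rian. St18 and Myt1 encode related zinc finger factors of neuronal differentiation, Gria1 an AMPA receptor subunit and Slit1 a guidance ligand, while Meg3 and Rian are imprinted noncoding RNAs of a shared locus. St18 averaged 73.2 ± 61.4 against 8.53 ± 6.6 CPM (log2 fold change 2.87, SE 0.52, adjusted p = 1.14e-04) and Gria1 160.1 ± 75.5 against 34 ± 13.1 (log2 fold change 2.29, SE 0.25, adjusted p = 6.14e-09). The Rian call was lost under 7 of 17 alternatives, among them DESeq2, no replicate block, without mutant 12 and without control 15 (adjusted p up to 0.132). The St18 call was lost under DESeq2 (adjusted p = 0.0730) and the Slit1 call at a mitochondrial limit of 5% (adjusted p = 0.154). The 12 with the largest fall included Rgs5, Olig1, Dio2, Fkbp9, Col4a1, Fbln2, Acadl, Mt3, Sparc, Hes1 and Col22a1. Rgs5, a gene of pericytes, rested on 2 UMIs in the Dlx/Gad barcodes against 164 in the other cycling barcodes of these embryos, a pooled ratio of 27.2 (exact counting interval 7.41 to 226). The interval covers counting error of pooled UMIs only and not the spread among embryos.

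The second comparison set the cycling Dlx/Gad barcodes against 1885 non-cycling barcodes that passed the same Dlx/Gad gate with a cell cycle sum of 0, in all 7 embryos. Beyond the cell cycle genes that the gate selects, the cycling barcodes carried more RNA of radial glia and Notch genes and less of genes of postmitotic interneurons. Of 8261 genes tested 1610 (19.5%) were called, 816 (9.88%) higher and 794 (9.61%) lower. Without the 12 gate genes 810 (9.82%) were higher and 790 (9.58%) lower, and the median over all genes tested was −0.05.

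All 27 tested S phase genes and all 38 tested G2 and M phase genes were higher, with medians of 2.31 and 5.48; a barcode chosen for 6 cell cycle genes will hold others, so this describes the gate. The 12 named rises were all of this kind (Bub1, Kif18b, Hmmr, Plk1, Aurkb, Ndc80, Birc5, Cdca2, Pbk, Cep55, Aspm and Nek2). Their means over 7 embryos ran from 58.0 CPM for Kif18b to 343 for Aspm in the cycling class and from 0 to 3.91 in the non-cycling class. Of 14 cyclins, kinases and inhibitors 11 rose and none fell. Ccnd2 was at 1962, 1209, 1808 and 477 CPM in the mutants and 1520.2, 1341 and 872 in the controls, against 319.8, 222, 399 and 192 and 453, 304 and 252 in the non-cycling class (log2 fold change 2.04, SE 0.12, adjusted p = 3.47e-28). Cdk4, the kinase partner of D cyclins, averaged 607 ± 134 against 359 ± 51.2 CPM (SD, n = 7; log2 fold change 0.71, SE 0.12, adjusted p = 1.11e-06).

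Gsx2, a homeodomain factor of lateral eminence progenitors, was at 26, 78.8, 16.5 and 0 CPM in the mutants and 66.6, 20.2 and 15.6 in the controls, from 23 UMIs in all. It was at 1.71 to 6.21 CPM in the non-cycling class and higher in the cycling class in 6 of 7 embryos (log2 fold change 2.94, SE 0.63, adjusted p = 1.79e-04). Among 8 tested ventral regulators 2 rose and 1 fell (median −0.16).

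Radial glia genes rose in 11 of 13 tested cases and none fell (median 1.52), and 10 to 12 rose under every alternative. Fabp7 was at 1604, 1129.8, 941 and 424 CPM in the mutants and 888, 1377 and 1149 in the controls, against 347, 834, 362 and 313 and 192, 489 and 310.0 in the non-cycling class (log2 fold change 1.49, SE 0.13, adjusted p = 7.10e-17). It was higher in 7 of 7 embryos, by least in mutant 17. Vim averaged 681 ± 279 against 201 ± 41.6 CPM (log2 fold change 1.74, SE 0.14, adjusted p = 5.11e-19) and Slc1a3 289 ± 176 against 95.6 ± 30.9 (log2 fold change 1.52, SE 0.18, adjusted p = 6.30e-12). Set beside the first comparison, these genes lay between the other 2 classes in mean level. Doublets were not removed, and their part in these levels was not tested.

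Notch genes rose in 7 of 10 tested cases and none fell (median 1.09). Notch1 averaged 129 ± 53.2 against 42.5 ± 15.6 CPM (log2 fold change 1.53, SE 0.23, adjusted p = 4.84e-08), and Hes5, a target of the pathway, 45.4 ± 33.1 against 8.57 ± 5.91 (log2 fold change 2.18, SE 0.49, adjusted p = 3.85e-04). Of the dorsal regulators 3 of 9 rose, namely Pax6 (165 ± 47.5 against 47.7 ± 11.8 CPM; log2 fold change 1.71, SE 0.20, adjusted p = 1.61e-11), Gli3 (log2 fold change 2.02, SE 0.43, adjusted p = 1.41e-04), and Tfap2c, a factor of basal progenitors (log2 fold change 1.58, SE 0.60, adjusted p = 0.0485). The Tfap2c call was lost under 6 of 12 alternatives, among them without mutant 10, control 14, control 15 or mutant 17 (adjusted p up to 0.168). Of the intermediate progenitor genes 4 of 8 rose, among them Insm1, at 182, 131, 281 and 106 CPM in the mutants and 233, 96.2 and 141 in the controls against 40.4 to 74 in the non-cycling class (log2 fold change 1.57, SE 0.20, adjusted p = 4.34e-10). Of the oligodendrocyte precursor genes 2 of 5 rose, Egfr (log2 fold change 2.71, SE 0.50, adjusted p = 7.89e-06) and Bcan (79.7 ± 54.3 against 16.2 ± 12.2 CPM; adjusted p = 1.72e-07).

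Interneuron genes fell. Of 14 tested genes of GABAergic neurons 11 fell and none rose (median −1.31). Lhx6, a LIM homeodomain factor of medially derived interneurons, was at 19.5, 26.3, 0 and 132 CPM in the mutants and 0, 40.5 and 23.4 in the controls, against 217, 257, 130.5 and 239 and 255, 177 and 189 in the non-cycling class. It was lower in 7 of 7 embryos (log2 fold change −2.93, SE 0.27, adjusted p = 1.91e-16), although the value in mutant 17 lay within the non-cycling range. Maf, a factor of the same lineage, averaged 25.5 ± 14.1 against 139.9 ± 44.8 CPM (log2 fold change −2.68, SE 0.28, adjusted p = 2.02e-13), Sst, the neuropeptide somatostatin, 17.6 ± 12.7 against 96 ± 40.2 (log2 fold change −2.38, SE 0.33, adjusted p = 5.77e-09), and Erbb4 142 ± 103 against 487 ± 129.9 (log2 fold change −2.15, SE 0.17, adjusted p = 3.29e-20). Of 7 tested medial eminence genes 5 fell (median −2.28) and of 7 caudal genes 2 fell, the serotonin receptor gene Htr3a (log2 fold change −2.44, SE 0.36, adjusted p = 3.30e-08) and Adarb2 (log2 fold change −1.60, SE 0.25, adjusted p = 1.82e-07). Of 10 lateral and olfactory genes 3 fell (Tshz1, Ebf1 and Foxp1; median −0.65), 0 without mutant 10 and 0 under DESeq2.

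Early neuronal genes fell in 7 of 10 cases (median −0.42). Dcx was at 955, 788, 834 and 1272 CPM in the mutants and 1054, 987 and 1301 in the controls against 1785, 2049, 1564 and 1857 and 2079, 1919.8 and 1973, without overlap (log2 fold change −0.92, SE 0.11, adjusted p = 1.57e-11). Of 11 glutamatergic genes 6 fell (median −0.51), among them Mef2c (log2 fold change −1.16, SE 0.15, adjusted p = 7.68e-10) and Bcl11b (log2 fold change −1.03, SE 0.14, adjusted p = 5.52e-09), both also made by GABAergic neurons. The other named falls were Rph3a, Npy, Dpp10, Nxph1, Drp2, Npas1 and Clstn3. Rph3a, a synaptic vesicle protein, averaged 14.3 ± 9.01 against 120.3 ± 35.5 CPM (log2 fold change −2.83, SE 0.31, adjusted p = 1.20e-12), and Npy, the neuropeptide Y, 14.2 ± 20.3 against 85.8 ± 39.9 (log2 fold change −2.28, SE 0.34, adjusted p = 6.15e-08). The naming rule was met by 342 genes that rose and 381 that fell.

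**Figure D4:**
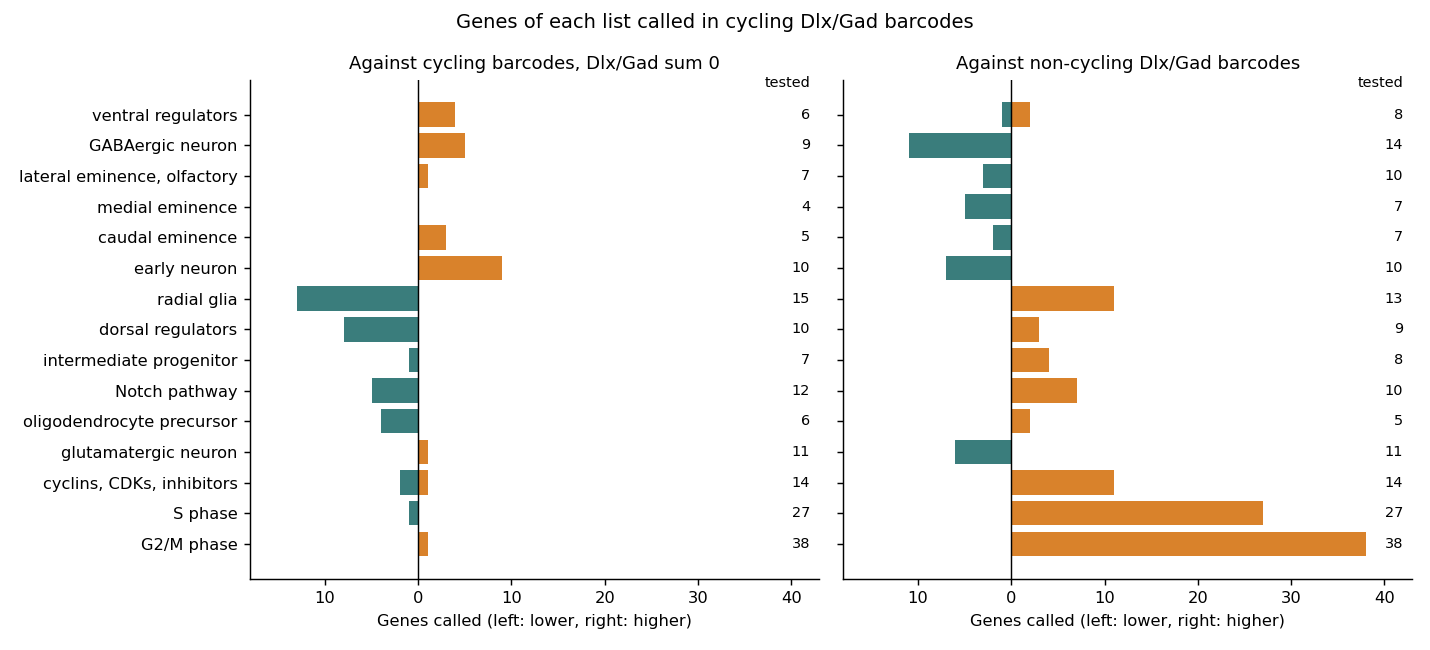
Number of genes of each list called higher and lower in cycling Dlx/Gad barcodes, against cycling barcodes with a Dlx/Gad sum of 0 and against non-cycling Dlx/Gad barcodes; bars to the left count lower and bars to the right higher genes, with the number tested at the edge. Radial glia genes are called lower in 13 of 15 in the first comparison and higher in 11 of 13 in the second.

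The third comparison asked whether the cycling Dlx/Gad barcodes of mutants differ from those of controls. Every mutant carried Emx1CreERT2 and no control did. Loss of Ash1l therefore cannot be told apart from the presence of the Cre allele, here or in the other genotype comparisons below. Ash1l itself (chromosome 3, 88950622 to 89079375, plus strand) was at 188, 105, 198 and 185 CPM in mutants 10, 11, 12 and 17 and at 111, 207 and 289 in controls 14, 15 and 16, from 29, 4, 24 and 7 and 10, 41 and 74 UMIs. The groups overlapped, with means of 169 ± 43.1 (SD, n = 4) and 203 ± 89.2 CPM (SD, n = 3), and edgeR gave no call (log2 fold change −0.25, SE 0.32, adjusted p = 0.958). The sign turned without control 16 (0.08) and at a mitochondrial limit of 5% (0.01). Counts over the whole gene need not register the loss of floxed exons, and which part of Ash1l was floxed is not given in the sources used here, so this value does not check the genotype.

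The Emx1CreERT2 transgene was not among the gene rows used here. Esr1, the mouse gene of the receptor whose ligand-binding part gives the Cre its response to tamoxifen, had 2, 0, 0 and 0 UMIs in the mutants and 0, 3 and 0 in the controls. Emx1 was at 45.5, 26.3, 41.3 and 26.5 CPM in the mutants and 0, 55.7 and 39.1 in the controls, overlapping and from 1 to 11 UMIs where detected. Of 11 genes that include Ash1l, its partners, other H3K36 methyltransferases and Polycomb members, 9 were tested and none was called (median 0.06).

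Across 3099 genes tested in the 7 embryos, edgeR called 0 (0%), with 146 (4.71%) at an unadjusted p under 0.05, and DESeq2 called 0, with 67 at an unadjusted p under 0.05. A missing call does not show that the groups are alike, since mutants 11 and 17 held only 38060 and 37748 UMIs in these barcodes, where 1 UMI is 26.3 and 26.5 CPM. The largest sum, 255869 UMIs in control 16, included a single barcode with 35293. The 5 genes of smallest p are described next; none passed.

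Dchs1, a large cadherin of planar polarity, was at 149, 131, 189.9 and 238 CPM in the mutants and 33.3, 75.9 and 62.5 in the controls (log2 fold change 1.50, SE 0.37, adjusted p = 0.623). Kalrn, a guanine nucleotide exchange factor of neurons, was at 156, 158, 124 and 212 CPM against 66.6, 40.5 and 62.5 (log2 fold change 1.48, SE 0.38, adjusted p = 0.623). Plcl2, a phospholipase-like protein without enzyme activity, was at 110.4, 184, 116 and 132 CPM against 33.3, 25.3 and 62.5 (log2 fold change 1.55, SE 0.44, adjusted p = 0.805). For these 3 genes every mutant lay above every control.

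Rprm, a cell cycle inhibitor also used as a marker of deep-layer cortical neurons, was at 58.5, 26.3, 33 and 26.5 CPM in the mutants and 122, 137 and 125 in the controls, every mutant below every control (log2 fold change −1.57, SE 0.42, adjusted p = 0.801). Zc3h12c, a CCCH zinc finger protein, was at 273, 52.5, 116 and 106 CPM against 33.3, 65.8 and 27.4, overlapping, with 42 of its UMIs in mutant 10 (log2 fold change 1.94, SE 0.47, adjusted p = 0.623). These 5 were chosen by p among 3099 genes, so groups that do not overlap are to be expected among them.

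**Figure D5:**
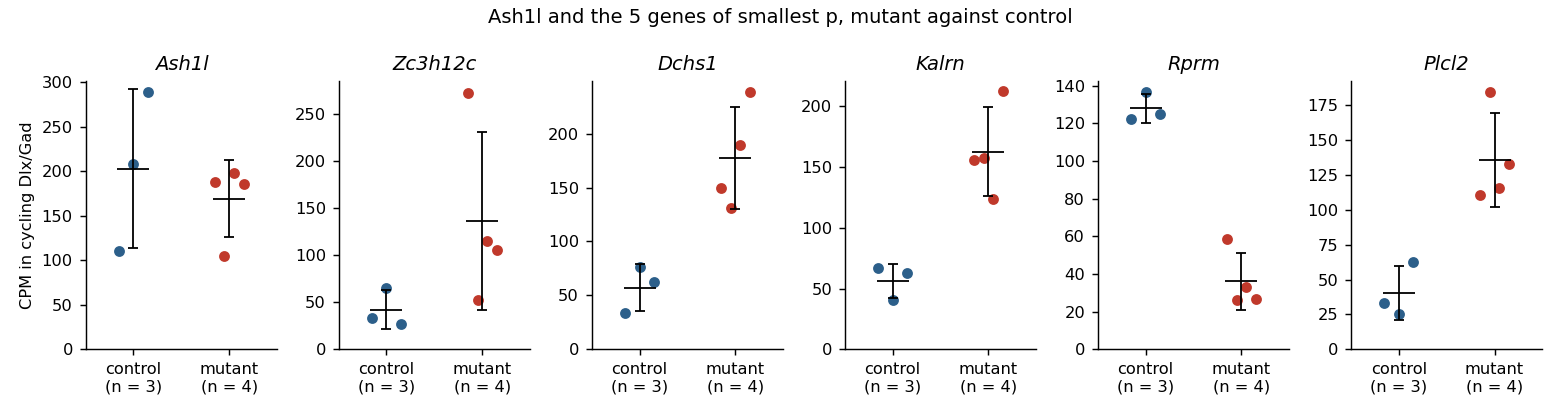
Level in CPM of Ash1l and the 5 genes of smallest p in cycling Dlx/Gad barcodes, 1 point per embryo for the 4 mutants (red) and 3 controls (blue), with the mean and SD of each group. Ash1l and Zc3h12c overlap between groups, Dchs1, Kalrn and Plcl2 are higher in every mutant and Rprm lower in every mutant, and none of the 6 has an adjusted p under 0.05.

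By list, no gene passed in either direction. The medians were 0.49 for 17 tested S phase genes (16 above 0), 0.20 for 36 G2 and M phase genes (30 above 0), −0.18 for 11 radial glia genes and −0.23 for 10 early neuronal genes, beside 0.00 over all genes tested. They were −0.80 for 4 erythroid genes and −0.56 for 3 caudal eminence genes, none of them above 0, and −0.50 for 6 glutamatergic genes (1 above 0). The other lists with at least 1 tested gene had medians from −0.29 to 0.29. The part of red blood cell RNA in the genotype values was not tested. S phase genes summed to 4488, 4677, 4870 and 1669 CPM in mutants 10, 11, 12 and 17 and to 4416, 2389 and 2857 in controls 14, 15 and 16, overlapping. Spr, the sepiapterin reductase, was at 58.5, 78.8, 49.5 and 53 CPM in the mutants and 22.2, 30.4 and 23.4 in the controls, from 2 to 9 UMIs per embryo, and Npy at 13, 0, 0 and 26.5 against 0, 5.06 and 54.7; neither passed the filter on low counts.

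In the cycling barcodes with a Dlx/Gad sum of 0, the class that contains the dorsal progenitors, edgeR called 0 of 7916 genes (0%), with 469 (5.92%) at an unadjusted p under 0.05. Spr had the smallest p there, at 96, 99.2, 65.8 and 78.2 CPM in the mutants and 43.7, 20.1 and 30.8 in the controls (log2 fold change 1.44, SE 0.28, adjusted p = 0.201). It passed without control 14 (adjusted p = 0.0363), without mutant 17 (adjusted p = 0.0457) and with no filter on low counts (adjusted p = 0.00144), in a range up to 0.913 over 15 alternatives.

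Whether the genotype difference itself differs between the 2 cycling classes was tested as an interaction, with embryo as a term (its direction is mutant minus control in Dlx/Gad barcodes less the same difference in the others), over 8152 genes. Serpine2, a secreted inhibitor of serine proteases, was the only gene called (0.0123%; 317 genes, 3.89%, at an unadjusted p under 0.05). In cycling Dlx/Gad barcodes it had 0, 1, 0 and 0 UMIs in the mutants and 10, 20 and 5 in the controls, a pooled ratio of controls to mutants of 22.6 (exact counting interval 3.80 to 918). That interval covers counting error of pooled UMIs only and not the spread among embryos. In the other cycling barcodes Serpine2 was at 98.2, 116, 31.7 and 60.3 CPM in the mutants and 91.6, 58.6 and 37.6 in the controls, overlapping. The interaction was −4.74 (SE 0.96, edgeR adjusted p = 0.0291), it was lost under 8 of 18 alternatives, and DESeq2 called 0 genes. The call was lost without mutant 10 (adjusted p = 1), mutant 12 (0.062), control 15 (0.228) or mutant 17 (0.212), and the lowest adjusted p over the alternatives was 0.00306.

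The next 4 genes by p did not pass. Ryr3, a calcium release channel, had 7, 2, 5 and 3 UMIs in the mutants and 0, 1 and 1 in the controls (interaction 4.32, SE 1.09, adjusted p = 0.64). Reln, the secreted glycoprotein reelin, had 1, 0, 1 and 3 and 0, 3 and 80 UMIs, and Slc17a6, a vesicular glutamate transporter, 1, 0, 0 and 0 and 0, 2 and 25. The interactions of Reln and Slc17a6 (−2.58 and −4.07, adjusted p = 1 for both) rested on control 16, where that of Reln was 0.33 without it, while without control 14 it passed (−3.29, adjusted p = 0.00962). Zc3h12c had an interaction of 1.61 (SE 0.48, adjusted p = 1).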

How the data were processed

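The authors deposited raw UMI counts per gene and barcode for 7 Seq-Well libraries of cortex; reads were aligned to mm10 and STAR was used, per the submitters' processing notes, while the sources used here do not give the counting step, its use of strand or any filter. Library totals ran from 7083225 to 11859209 UMIs. Intervals given for shares are exact binomial intervals over barcodes and cover counting error only. Every library pair differed by far more than sampling noise. No column of per-sample values was left out. Embryos are littermates, so p-values measure the spread among embryos of 1 litter.

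Barcodes were gated on raw counts as the report states, with Python 3.11.15 and scanpy 1.11.5. Counts were summed per embryo and class and tested with edgeR 4.0.16 (quasi-likelihood, TMM scaling, low counts filtered by edgeR's own rule, R 4.3.3); embryo was a block in the class comparisons and in the interaction. All adjusted p-values are edgeR's with Benjamini-Hochberg adjustment over all genes tested, unless DESeq2 1.42.0 is named. Shares were compared with an exact permutation test. The first class comparison took embryos with at least 20 cycling Dlx/Gad barcodes. The steps were tested on simulated counts. Background barcodes held at least 4 summed UMIs of microglial or endothelial markers. Coordinates are from GENCODE M21 (GRCm38, the same assembly as mm10).

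Named genes are, per class comparison and direction, the 12 called genes with the largest fold change that average 50 CPM in the higher class and move the same way in every embryo; in genotype comparisons, the called genes or the 5 of smallest p; listed genes of highest mean level and defining markers; and Ash1l, Esr1, Emx1, Spr and Npy. Other listed genes were named after their values were seen. Members and lists were chosen with earlier results of these data known. Dlx1as was matched under the symbol Dlx1os. Some genes that these rules name, and that count in the lists, are not reported here.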

Additional observations from a re-analysis of the deposited data

Results flagged for a closer look

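Over 44 measures in the 4 mutants, 6 had a value that stood apart from the other 3 by Dixon's test. The test's rate of about 1 in 20 groups by chance holds for continuous values and not for genes of a few UMIs. The 6 of 44 are therefore not read as more than chance gives. A gene with UMIs in 1 mutant only is flagged whatever its level, as Serpine2, Esr1 and Slc17a6 were. The levels of the 6 in cycling Dlx/Gad barcodes follow. Ash1l was at 105 CPM in mutant 11, from 4 UMIs, against 185 to 198 in the other mutants. Olig1 was at 183.9 CPM in mutant 11, from 7 UMIs, against 0 to 8.25. Serpine2 was at 26.3 CPM in mutant 11 and 0 in the others, from 1 UMI. Reln was at 79.5 CPM in mutant 17, from 3 UMIs, against 0 to 8.25. Esr1 was at 13.0 CPM in mutant 10, from 2 UMIs, and Slc17a6 at 6.50 CPM in mutant 10, from 1 UMI, with 0 in the other mutants for both. For Serpine2 the genotype effect differed between the 2 cycling classes by −4.74 on the log2 scale in the test of the interaction (edgeR adjusted p = 0.0291).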

How the results depend on the processing

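Against cycling barcodes with a Dlx/Gad sum of 0, 551 genes were called, 220 under DESeq2 (all 220 among the 551), 319 with no replicate block (318 shared), 339 at a mitochondrial limit of 5%, 334 without Dlx/Gad barcodes that hold a glutamatergic marker, and 361 (without mutant 10) to 498 (without control 14) with 1 embryo left out. Of 59 called genes followed, 36 kept their call under every alternative tried. Against non-cycling Dlx/Gad barcodes, 1610 were called, 942 at 5%, 1092 with no replicate block and 1217 (without mutant 10) to 1588 (without mutant 17) with 1 embryo left out. No paired analysis was possible for the genotype because the groups share no replicate number. There the 0 calls in Dlx/Gad barcodes became 2 with no filter on low counts and stayed 0 to 0 with 1 embryo left out, and the 0 calls in the other cycling barcodes became 16 with no filter and 0 to 12. For the interaction, 1 call became 0 under DESeq2, 3 at 5%, 4 at a Dlx/Gad sum of at least 3, 0 at a cell cycle sum of at least 5, 0 with only embryos of at least 20 such barcodes (chosen after seeing the data), and 0 to 4. The difference in the share of kept barcodes, −0.121 points, was 0.0759 at 5%, 0.0718 without glutamatergic markers, 0.124 when thinned, and −0.419 (without mutant 10) to 0.127 (without mutant 17), 0.0905 without mutant 11; that in the share of cycling barcodes, −3.76 points, was −0.672 at 5%, −0.427 without glutamatergic markers, −0.597 when thinned and −6.34 (without mutant 10) to −1.28 (without mutant 17) with 1 embryo left out. The Ash1l fold change (log2) was 0.00865 at 5% and −0.473 to 0.0750 with 1 embryo left out. The Reln interaction was 1.75 without glutamatergic markers and −3.50 to 0.332 with 1 embryo left out. The causes were not tested. The number of barcodes limits the genotype test, as mutants 11 and 17 hold 13 and 11 of them.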
